A study of Mus musculus with 6 samples.

Results

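The 10 genes followed here, which dividing cells transcribe, were measured in cells dissociated from the proximal pulmonary artery (PA) of young and old C57BL/6J mice. The 10 members were chosen by gene symbol from the 53647 genes counted, and a cell was called cycling where at least 2 of them were detected. By this rule 369 of the 15622 cells kept were cycling, 2.36%. Single cell RNA sequencing libraries of 6 mice were used. The young group held 2 mice of 3 months, a male (replicate 1) and a female (replicate 2). The old group held 4 mice, of 20 months (replicate 1), 24 months (replicate 2), 28 months (a female, replicate 3) and 27 months (a male, replicate 4). All were wild type, each library came from the artery and the tissue around it, and p-values measure the spread between these libraries.

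Proliferation markers follow the steps of the cell cycle. Thymidylate synthase and ribonucleotide reductase make the nucleotides used to copy DNA in S phase, and cyclin B with its kinase drives entry into mitosis, after which a ubiquitin ligase destroys the cyclin and lets the cell exit. Most of these genes are silent in resting cells, and the endothelium, smooth muscle and fibroblasts of an adult artery divide rarely, whereas macrophages of many tissues renew themselves locally and B cells divide after activation.

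The libraries differed in depth, which bears on every count of detected genes below. RNA molecules were counted by their molecular barcodes (UMIs), and the total per library ranged from 6355125 to 50436562, the kept cells from 935 to 4067, and the median UMIs per kept cell from 801.5 to 8150. The deepest cells were those of 27 and 28 months. Cells of a rule that needs 2 detections are found more easily in deep cells, so each cell was also thinned at random to 500 UMIs. Barcodes recurred between libraries: young replicates 1 and 2 shared 156, young replicate 1 and the 24-month library 131, and young replicate 2 and the 24-month library 215, against at most 4 in any other pair. The 20-month library came from a male as the study describes it. It held Xist at 694 CPM (counts per 1000000 UMIs), against 609 and 850 in the libraries of the females and 1.53 to 51.5 in the other 3. Its Y-linked genes (Ddx3y, Eif2s3y, Kdm5d and Uty) summed to 65.7 CPM, against 266 to 342 in those 3 and 26.5 and 0.331 in the females. Of its 228 Y-linked UMIs 209 were of Ddx3y. The library is therefore called here by its age alone.

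Of the members, Top2a was the one most often found in cycling cells. This gene for the topoisomerase that untangles DNA was detected in 236 of the 369 cycling cells (64%), Birc5 (survivin, of the chromosomal passenger complex) in 166, Ube2c (the ubiquitin-conjugating enzyme of the ligase that ends mitosis) in 160, and Mki67, the source of the Ki-67 protein that coats mitotic chromosomes, in 135 (36.6%). The mitotic kinase gene Cdk1 was detected in 111 of them, its partners Ccnb2 and Ccnb1 in 131 and 71, and Cenpf, which encodes a kinetochore protein, in 100. Tyms (thymidylate synthase) and Rrm2 (the small subunit of ribonucleotide reductase) were each detected in 107. Top2a and Birc5 overlapped most as a pair, with both in 114 cells, 31.9% of those with Top2a and 44.9% of those with Birc5, and Ccnb1 and Tyms overlapped least, with both in 21 cells, 24.1% and 3.5%. All 10 members were detected in 5 cells, 2 of them of 27 months and 3 of 28 months.

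The members differed in how far their RNA was held by cycling cells. Of all UMIs of a member, cycling cells held 89.1% for Mki67, 86.6% for Top2a, 85.9% for Cdk1, 84.3% for Cenpf and 81.4% for Birc5. The share was 74.9% for Rrm2, 68.2% for Ube2c, 59.2% for Ccnb1 and 57.4% for Ccnb2. For Tyms it was 22.2%: 493 of the 600 cells with a Tyms UMI (82.2%) held no other member. Of these 493 cells 130 lay in a cluster led by Rgs4, which raised smooth muscle markers but was kept apart by its leading genes. Smooth muscle cells (SMCs) held 82, fibroblasts (FBs) 78 and endothelial cells (ECs) 48. Others lay in mesothelial cells (31), macrophages (28), B cells (20) and further classes. Tyms stood at 7.19, 11.0, 11.7 and 11.0 CPM in the first classes named and at 14.3, 10.3 and 14.4 CPM in the last. Processed pseudogenes took few reads, with 1 UMI for Ccnb1-ps, 15 for Ccnb2-ps and 2 for Tyms-ps.

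Ube2c and Ccnb1 were also found in quantity without any other member. In erythroid cells of 28 months Ube2c reached 234 CPM, while each of the other 9 members was at or under 10.3. Of all cells with Ube2c alone, 42 were erythroid, and 11 of these held from 4 to 11 Ube2c UMIs. The 11 cycling erythroid cells, all of 28 months, each held exactly 2 members, and Ube2c was 1 of the 2 in 10 of them. Ccnb1 stood at 21 UMIs in 1 macrophage of young replicate 1, 10 in 1 macrophage of 24 months, and 18 and 5 in 2 ECs of 20 months, none of which held another member.

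The promoters of the members are shown because 2 short motifs recur before genes of late cell cycle phases. These are the cell cycle genes homology region (TTTGAA) and the CCAAT box (CCAAT). Each was searched on both strands in the 250 bases before the start of the gene, taken from RefSeq (GRCm38.p6) for all 10 members. The window reached into the annotated gene, which has a start further upstream, by 71 bases for Mki67, 21 for Cenpf, 20 for Tyms and 10 for Top2a, and these are not printed. The window is chr10:69352913-69353162 (minus strand) for Cdk1, chr9:70421555-70421804 (minus) for Ccnb2, chr2:164769679-164769928 (plus) for Ube2c, chr13:100786487-100786736 (minus) for Ccnb1 and chr11:117848987-117849236 (plus) for Birc5. The first 3 hold both motifs, Ccnb1 holds the CCAAT box alone and Birc5 neither. Capitals mark the motifs, and ATTGG and TTCAAA are their reverse complements.
Cdk1: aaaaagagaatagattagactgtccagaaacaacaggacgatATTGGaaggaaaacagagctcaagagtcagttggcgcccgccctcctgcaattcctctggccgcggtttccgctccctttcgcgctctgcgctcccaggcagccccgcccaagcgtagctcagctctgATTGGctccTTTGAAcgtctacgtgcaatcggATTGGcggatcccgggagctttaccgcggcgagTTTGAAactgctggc
Ccnb2: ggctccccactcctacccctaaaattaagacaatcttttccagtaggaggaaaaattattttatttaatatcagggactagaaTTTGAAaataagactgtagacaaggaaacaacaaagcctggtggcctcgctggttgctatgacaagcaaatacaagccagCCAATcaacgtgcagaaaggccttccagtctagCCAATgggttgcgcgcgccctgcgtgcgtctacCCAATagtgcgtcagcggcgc
Ube2c: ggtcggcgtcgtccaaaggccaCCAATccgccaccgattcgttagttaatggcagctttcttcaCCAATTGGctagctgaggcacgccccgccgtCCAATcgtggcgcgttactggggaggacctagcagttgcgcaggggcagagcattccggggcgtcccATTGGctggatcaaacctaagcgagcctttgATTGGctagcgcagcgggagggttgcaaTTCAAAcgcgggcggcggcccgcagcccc
Ccnb1: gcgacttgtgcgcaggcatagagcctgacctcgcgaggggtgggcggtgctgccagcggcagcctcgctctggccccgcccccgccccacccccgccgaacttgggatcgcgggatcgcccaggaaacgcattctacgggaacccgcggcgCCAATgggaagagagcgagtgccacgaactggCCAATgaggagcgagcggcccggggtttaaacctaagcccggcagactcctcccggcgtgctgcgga
Birc5: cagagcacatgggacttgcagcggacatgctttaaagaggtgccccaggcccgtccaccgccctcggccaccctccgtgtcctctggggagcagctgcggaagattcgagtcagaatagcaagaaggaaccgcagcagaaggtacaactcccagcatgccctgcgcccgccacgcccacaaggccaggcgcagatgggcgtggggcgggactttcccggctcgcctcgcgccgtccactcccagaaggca
TTTGAA was found in 5 of the 10 members (50%) and in 5252 of 32851 promoters in all (16%). CCAAT was found in 8 members (80%) and in 11120 of all promoters (33.8%), and both motifs together in 5 members, against 5.55% of all promoters. Both were also found together in 24.6% of 57 promoters of G2 and M phase genes, 53.3% of 15 of histone genes and 9.52% of 42 of S phase genes. Mki67 and Top2a were the other 2 members with both. Cenpf and Rrm2 held CCAAT alone, and Tyms held neither. The 2 motifs do not overlap each other in the 5 windows printed, whereas a CCAAT on one strand and a CCAAT on the other overlap once in Ube2c. A match is a run of letters and no evidence of binding, and the shares of the members are descriptions.

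In the libraries as a whole, the members were most abundant in young replicate 1. Summed over all kept cells, the 10 members summed to 360.9 CPM in young replicate 1 and 130.6 in young replicate 2. In the old libraries they summed to 50.1 at 20 months, 104.4 at 24 months, 25.4 at 27 months and 104.8 at 28 months. The values of both young mice lay above those of all 4 old mice, in libraries of unlike cell makeup. Droplets with 1 to 50 UMIs, which hold free RNA rather than cells, gave 109.7 and 62.3 CPM of members in the young libraries and 8.39 to 82.3 in the old, and the part of free RNA in the levels was not tested. Top2a, the most abundant member in young replicate 1, stood there at 101 CPM, at 34.9 in young replicate 2 and at 5.18, 27.6, 3.16 and 21.4 at 20, 24, 27 and 28 months. Tyms varied least among the members, from 8.14 to 15.4 CPM over the 6 libraries. Mki67 was as high at 28 months (23.2 CPM) as in young replicate 1 (22.6). The groups overlapped for Mki67, Ccnb1, Ube2c, Tyms and Rrm2, and did not for the other 5 members. For Birc5 the margin was narrow, with 11.6 CPM in young replicate 2 and 11.0 at 24 months. The share of all genes without overlap was not computed for whole libraries, so this count is a description. In young replicate 2 67.8% of the 202 member UMIs lay in its 23 cycling cells, and 19 of these cells carried shared barcodes.

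**Figure D1:**
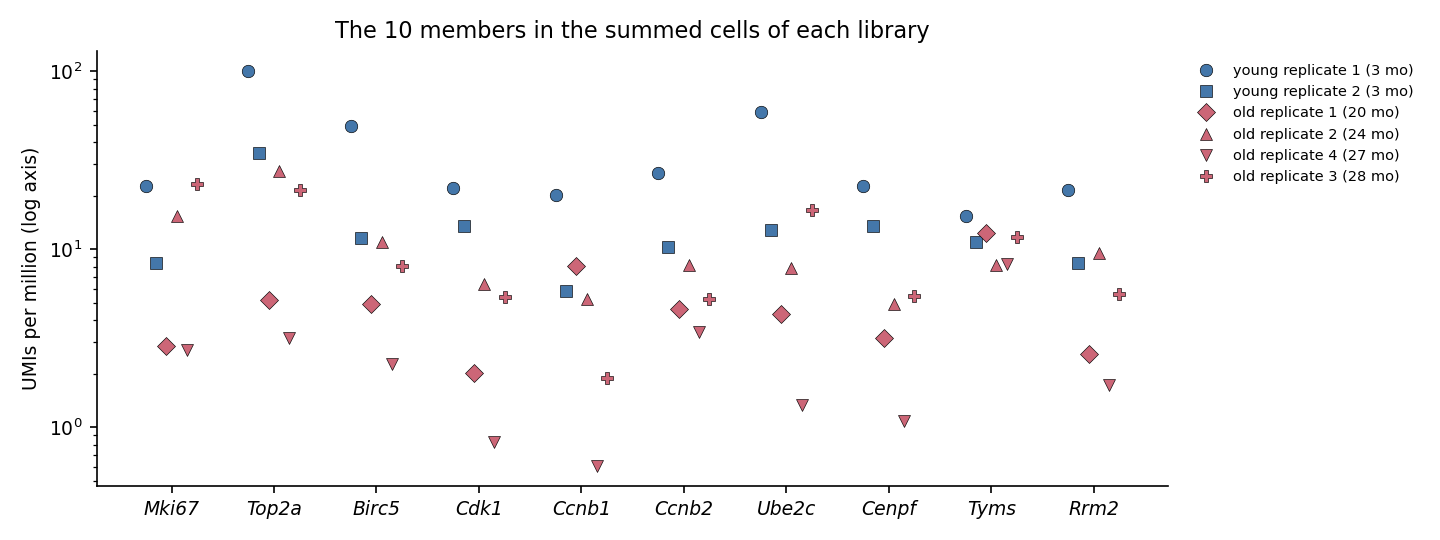
Level of each member in the summed kept cells of each library, in CPM on a log axis; circles and squares are the 2 young libraries and the other symbols the 4 old ones. Top2a runs from 3.16 to 101 CPM, whereas Tyms stays between 8.14 and 15.4.

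The share of cycling cells was highest in young replicate 1. There 167 of 2722 cells were cycling (6.14%, exact 95% interval 5.26 to 7.1), and in young replicate 2, 23 of 935 (2.46%, 1.57 to 3.67). In the old libraries 12 of 1233 cells were cycling at 20 months (0.973%), 50 of 2868 at 24 months (1.74%), 29 of 3797 at 27 months (0.764%) and 88 of 4067 at 28 months (2.16%). These intervals cover counting error only. Thinned to 500 UMIs per cell, the share was 2.62% and 0.631% in the young libraries and 0.174%, 0.485%, 0.0658% and 0.498% at 20, 24, 27 and 28 months. The groups did not overlap, with a mean of 1.63% ± 1.41 (SD, n = 2) in young and 0.306% ± 0.219 (n = 4) in old. The two-sided exact permutation test gave p = 0.133, the smallest that 2 against 4 libraries allow, so a difference at the 0.05 level could not be shown in this design. Cell makeup also differed between libraries, and its part in these shares was not tested. B cells were 43.6% of the cells of young replicate 1 and gave 57.5% of its cycling cells. They were 2.35% of young replicate 2 and 0.73%, 34.1%, 0.843% and 5.61% at 20, 24, 27 and 28 months. ECs were 54.7% at 20 months, and the Rgs4-led cluster was 53.3% at 27 months.

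Most cycling cells of young replicate 2 carried shared barcodes. Of its 23 cycling cells, 19 carried a barcode also kept in another library, 11 of those were cycling there too, and 17 lay in the same cell class. Without any shared barcode 4 of its 686 cells were cycling (0.583%), the thinned share was 0.292%, and the old libraries of 24 months (0.445%) and 28 months (0.5%) lay above it, so that the groups overlapped. Young replicate 1 was at 2.69% without them.

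**Figure D2:**
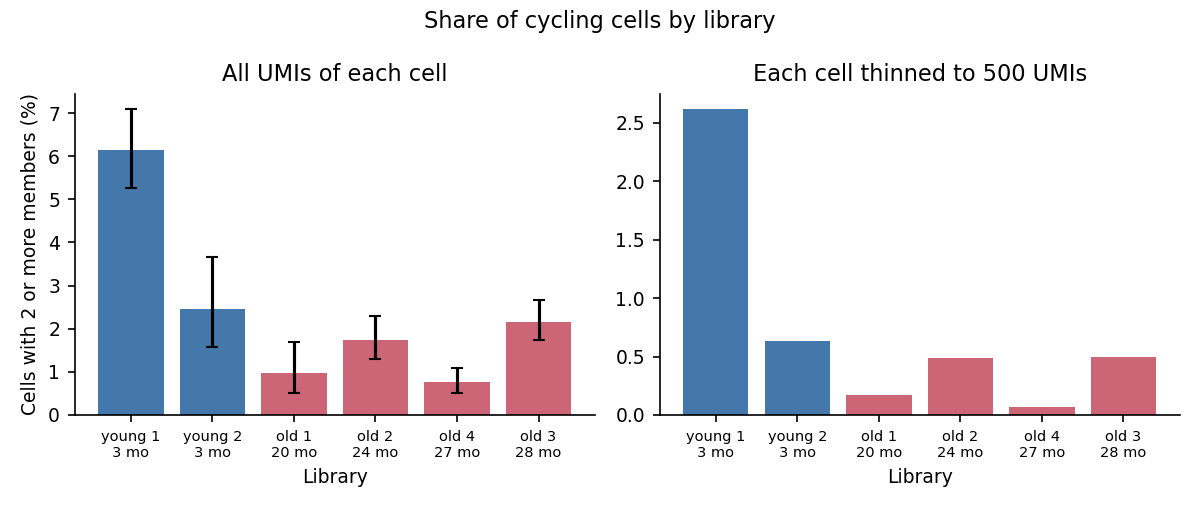
Share of cells with at least 2 members in each library, with all UMIs (left, error bars are exact 95% binomial intervals) and with each cell thinned to 500 UMIs (right). The left shares run from 0.764% to 6.14% and the right ones from 0.0658% to 2.62%, with the same library highest in both.

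Cells near the limit of the rule differed between libraries. Of the 369 cycling cells 154 held exactly 2 members and 215 held 3 or more, and 1216 further cells held exactly 1. Genes of G2 and M phase that are no members were summed in the same cells as a second description of division. Their list was chosen with earlier results of these data known, and the cells were not matched for class. Over all libraries the G2 and M sum was 17.7 UMIs per 10000 in cells with no member and 19.1 in cells with 1. It was 38.5 with exactly 2, 121 with 3 or 4 and 170 with 5 to 10. In cells with exactly 2 members it was 135 in young replicate 1 and 122 at 24 months, against 22 and 20.2 in cells with none. It was 34.5 against 18.3 in young replicate 2, 38.8 against 29.5 at 20 months and 26.3 against 16.4 at 28 months. At 27 months it was 16 in cells with exactly 2 members and 16.6 in cells with none. In that library, which held the deepest cells, 18 of the 21 cells with exactly 2 members lay in the Rgs4-led cluster. Of these 18 cells 14 held Tyms and 9 held Ccnb2 among their members.

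**Figure D3:**
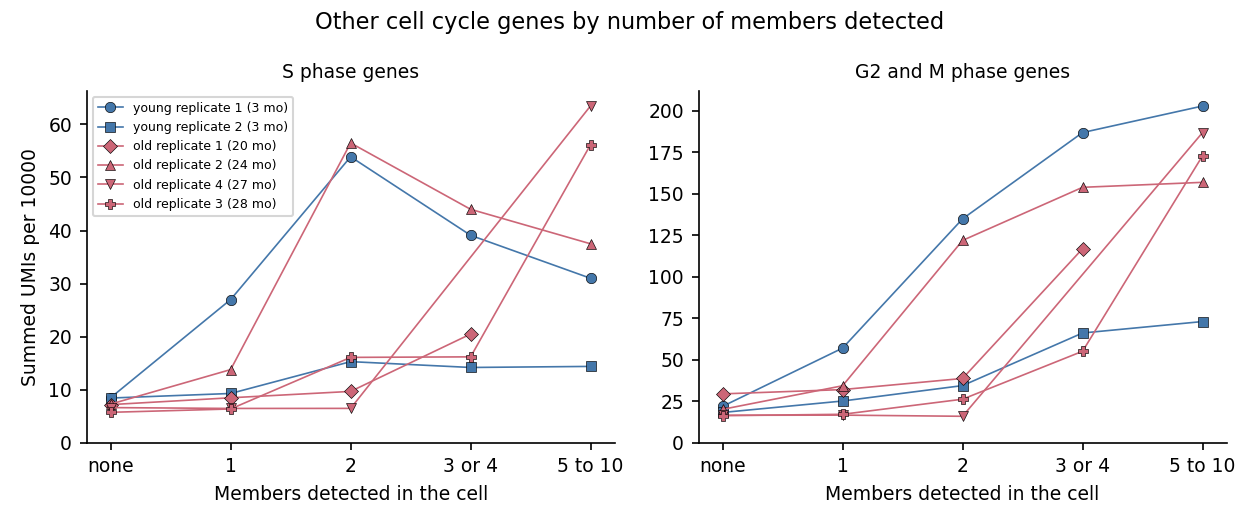
Summed UMIs per 10000 of 49 S phase genes (left) and 64 G2 and M phase genes (right) that are no members, by the number of members detected in the cell, 1 line per library; points from fewer than 3 cells are left out. Cells with exactly 2 members stand at 135 in young replicate 1 and at 16 in the 27-month library for G2 and M phase genes.

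The phase that the members point to also differed between libraries. Cycling cells were split into those with Tyms or Rrm2 (nucleotide synthesis) and those with Ccnb1, Ccnb2, Ube2c or Cenpf (mitosis). Mitosis genes alone were found in 94 of 167 cycling cells of young replicate 1 (56.3%) and 13 of 23 of young replicate 2 (56.5%). The share was 50% at 20 months, 34% at 24 months, 6.9% at 27 months and 33% at 28 months. Both kinds together were found in 16% to 21.7% of cycling cells in the 4 shallower libraries, and in 51.7% and 46.6% at 27 and 28 months, where the median cycling cell held 11880 and 10787.5 UMIs against 1563 to 5303 in the rest. At 27 months 21 of the 29 cycling cells held exactly 2 members. Their G2 and M sum was that of cells with none, so the split there need not describe dividing cells.

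By cell class, B cells and macrophages (MΦs) held most of the cycling cells. Clusters were made without cell cycle genes and named from marker genes, so that each name stands for cells like that type. Where the leading genes of a cluster held more markers of another type, it stood as its own class, named with its leading gene. The Rgs4-led cluster, nearest to smooth muscle, was such a class, with 2024 of its 2064 cells of 27 months. B cells made up 138 of the 369 cycling cells and MΦs 78. Airway epithelial cells held 21, T cells, plasma cells and the Rgs4-led cluster 18 each, and mesothelial cells 13. Erythroid and ciliated cells held 11 each, and monocytes or dendritic cells and FBs 10 each. Plasma cells had the highest share, with 18 of 111 cells (16.2%). The structural cells of the artery wall were rarely cycling: 5 of 1928 ECs (0.259%, exact interval 0.0843 to 0.604), 10 of 1854 FBs (0.539%, 0.259 to 0.990) and 4 of 1509 SMCs (0.265%, 0.0723 to 0.677), at median depths of 1921.5, 4487 and 5484 UMIs. In the Rgs4-led cluster, counted apart, it was 18 of 2064 (0.872%, 0.518 to 1.37) at a median of 9873.5 UMIs, and 0.00242% after thinning. All 5 cycling ECs were from the 20-month library and 8 of the 10 cycling FBs from the 28-month library.

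Thinned shares set each class against the other cells of the same library. ECs were below the rest in all 6 libraries, by 0.773 percentage points on average, and FBs in all 6, by 0.690 points. An exact sign-flip test gave p = 0.0312 for each, the smallest that 6 libraries allow, and an adjusted p of 0.104 over 10 classes. MΦs were above the rest in 5 of 6 libraries, by 0.964 points (exact p = 0.0625, adjusted p 0.104), and at 28 months they lay 0.271 points below it. SMCs were below the rest in 5 of 5 libraries, by 0.843 points (exact p = 0.0625, adjusted p 0.104). Plasma cells were above in 3 of 3 libraries, by 4.86 points, and B cells in 3 of 5, by 2.05 points. None of the 10 classes passed the adjusted threshold. A class at 0% lies below any rest that is above 0%, so a class of few cells can be placed there by its size. Young replicate 2 held 60 ECs, 32 FBs and 33 SMCs, all at 0% after thinning, and young replicate 1 held 23 SMCs at 0%. The part of class size in these differences was not tested. Of ciliated cells, which do not divide once mature, 11 of 340 were called cycling (3.24%) at a median of 1800 UMIs, and 0.147% after thinning. Among the 11, 6 held 3 or more members and 9 carried shared barcodes, so the class gives no rate of false calls. MΦs were at 4.33% at a median of 1466 UMIs and at 1.5% after thinning.

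**Figure D4:**
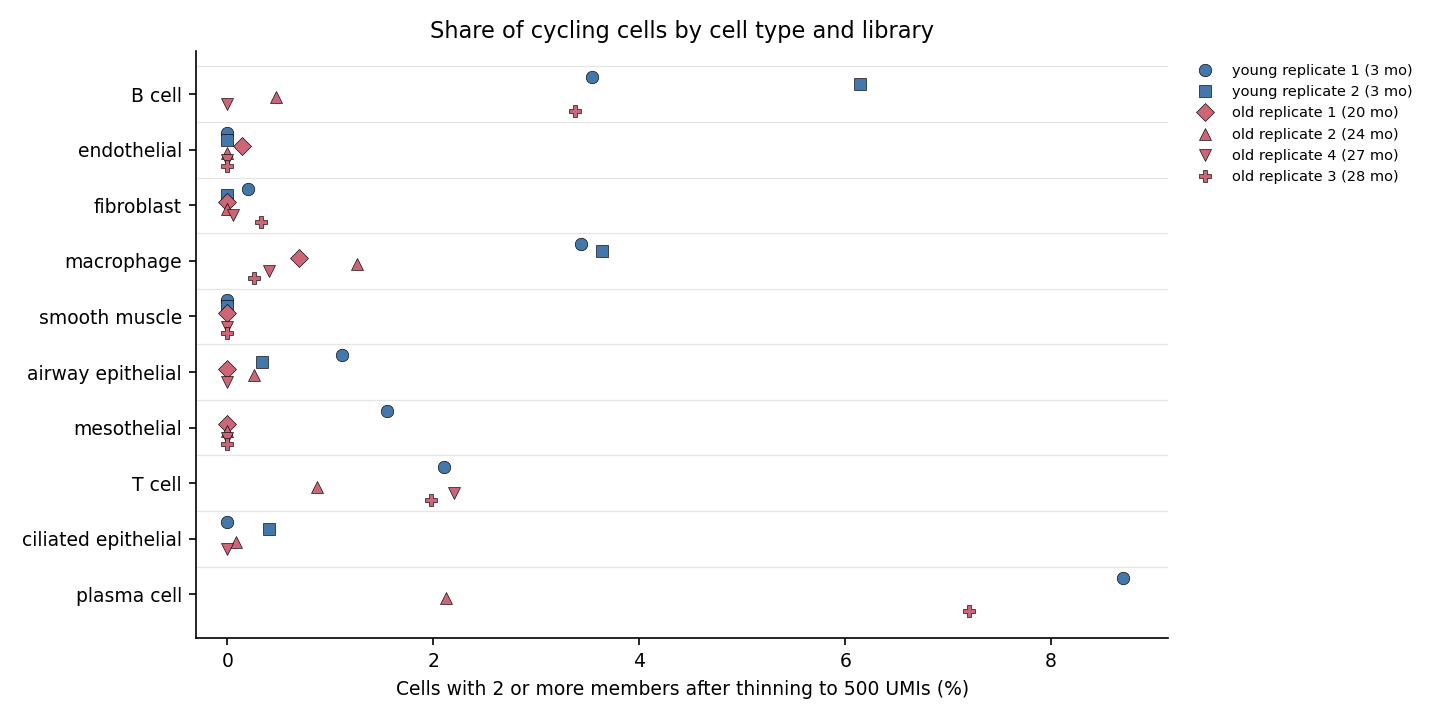
Share of cells with at least 2 members after thinning to 500 UMIs (x axis, %) in each class and library with at least 20 cells of the class; blue symbols are young and red symbols old libraries. In macrophages both young libraries (3.43% and 3.64%) lie above the 4 old ones (0.258% to 1.26%), and in B cells the 28-month library (3.38%) lies beside young replicate 1 (3.54%).

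In MΦs both young libraries lay above the 4 old ones. Cycling MΦs numbered 39 of 475 (8.21%) and 5 of 66 (7.58%) in the young libraries, and 4 of 137 (2.92%), 18 of 410 (4.39%), 3 of 250 (1.2%) and 9 of 465 (1.94%) at 20, 24, 27 and 28 months. The thinned shares were 3.43% and 3.64% in young and 0.693%, 1.26%, 0.4% and 0.258% in old. Their means were 3.53% ± 0.145 (SD, n = 2) and 0.652% ± 0.442 (n = 4), with no overlap, at p = 0.133 in the exact permutation test, the smallest possible, and an adjusted p of 0.4 over 6 classes. Of the 39 cycling MΦs of young replicate 1, 4 were marked as doublets (barcodes that may hold more than a single cell). Without shared barcodes the thinned shares were 3.45% and 2.37% in young and at most 1.05% in old. Within the 3 libraries that share barcodes, the mean of the young was 3.53% and the 24-month value 1.26%.

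The libraries of 27 and 28 months drew most of their MΦs from a cluster without young cells. A cluster led by E230016K23Rik, Ccl4 and Nlrp3 held 417 of the 475 MΦs of young replicate 1, and a cluster led by Cd209d, Ccl8 and Cd209f, with the resident macrophage genes Mrc1 and Cd163 among its leading genes, held 212 of 250 at 27 months and 378 of 465 at 28 months and no young cell. In the Ccl4-containing cluster the thinned share was 3.37% and 3.89% in young and 3.86%, 1.04%, 0% and 0.833% at 20, 24, 27 and 28 months, the first of these from 22 cells of which 2 were cycling, so the groups overlapped there. In a smaller cluster led by Prg4 and Alox15 it was 3.04% and 3.75% in young and 2.05% at 24 months, the only old library with cells in it. The Cd209d-led cluster was at 0.472% and 0.185% at 27 and 28 months. That cluster held 594 cells over all libraries, so nearly all MΦs of 20 and 24 months lay in other clusters. The libraries of 27 and 28 months also held the deepest cells. Cluster, age and depth cannot be told apart for the cells of 27 and 28 months. Another MΦ cluster held 184 cells over all libraries, 3 of them cycling, and was at 0.516% after thinning. Of the 137 MΦs of 20 months only 22 lay in the Ccl4-containing cluster, which leaves few to compare with young cells there.

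In B cells the young libraries also lay above the old ones after thinning, but by a narrow margin and not in all counts. Cycling B cells numbered 96 of 1186 (8.09%) and 2 of 22 (9.09%) in young mice, 14 of 977 (1.43%) at 24 months, 0 of 32 at 27 months, which allows a share of up to 9.38% (3 cells of the total), and 26 of 228 (11.4%) at 28 months. Thinned, the mean was 4.84% ± 1.83 (SD, n = 2) in young and 1.28% ± 1.83 (n = 3) in old (exact permutation p = 0.2, the smallest possible, adjusted p 0.4). Both cycling B cells of young replicate 2 carried shared barcodes, and without these its thinned share was 0%. The 28-month value, 3.38%, was close to the 3.54% of young replicate 1. Of the 26 cycling B cells of 28 months 14 held 5 or more members, against 17 of 96 in young replicate 1. The median B cell held 7078 UMIs at 28 months and 779 in young replicate 1, so these counts are not at equal depth. Germinal center markers (8 of 9 detected, Gcsam at 0) summed to 1.86 UMIs per 10000 in cycling and 1.25 in other B cells, beside 113 and 112 for the 9 B cell markers.

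The other classes held few cycling cells in each library. Thinned airway epithelial shares had a mean of 0.726% ± 0.545 in young (n = 2) and 0.0875% ± 0.152 in old (n = 3, exact permutation p = 0.2, adjusted p 0.4), and 17 of their 21 cycling cells carried shared barcodes. Of 13 cycling mesothelial cells, 12 were from young replicate 1 (12 of 415, 2.89%), with 0 of 144 at 24 months and 1 of 139 at 28 months. Cycling plasma cells numbered 8 of 27 in young replicate 1, 5 of 40 at 24 months and 5 of 41 at 28 months. T cells were at 2.10% after thinning in young replicate 1 and at 0.868%, 2.20% and 1.98% at 24, 27 and 28 months. In FBs the thinned means were 0.101% and 0.0951%, and in SMCs the thinned share was 0% in all 5 libraries.

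Counts summed per library and class were tested gene by gene, and no member passed in any class. In MΦs the members as a sum were higher in both young libraries than in the 4 old ones. They summed to 466 and 521 CPM in young MΦs and to 99.2, 307, 105 and 52.8 at 20, 24, 27 and 28 months. The value of young replicate 2 rested on 32 member UMIs among 61416 UMIs of 66 cells, so its values of single members come from few UMIs. Of its 5 cycling MΦs 2 carried shared barcodes. Top2a was at 107 and 142 CPM in young and at 12.7, 91.7, 18.7 and 11.0 in old MΦs. Both young values lay above the 4 old ones, as they did for Birc5, Ube2c, Cenpf and Rrm2, 5 of 10 members, where 4.68% of all genes tested had young above old without overlap. Ube2c had the smallest p of the members, with 79.2 and 28.4 CPM in young and 6.36, 11.2, 13.6 and 2.94 in old, a log2 fold change of -2.78 (SE 0.730, edgeR quasi-likelihood test, adjusted p = 0.857). Mki67 did not follow, with 27.8 and 42.6 CPM in young and 28.6, 60.4, 21.9 and 11.0 in old (log2 fold change -0.16, SE 0.780). The fitted changes of the 10 members ran from -2.96 (Rrm2) to -0.16, with a median of -1.89 against 0.29 over all 14123 genes.

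In old against young MΦs 0 of 10 members passed, where 0.0% of genes were called by edgeR, with 609 genes at an unadjusted p under 0.05 and 3 called by DESeq2. In the other classes the members called were 0 of 10 tested in B cells (0.179% of all genes called) and T cells (0.0333%), 0 of 9 in FBs (0.0602%), 0 of 8 in airway epithelial (0.0%) and plasma cells (0.0%), 0 of 7 in mesothelial cells (0.0483%), 0 of 5 in ECs (0.0%), 0 of 3 in ciliated cells (0.667%) and 0 of 1 in SMCs (0.00733%). A 16-fold change was recovered for 20.4% of genes in simulated MΦ counts of this size and a 4-fold change for 0%, so the depth and number of mice limit what a missing call can show. Of the cell cycle lists, 1 gene was called: H2ac8, a histone gene, was at 340 and 85.3 CPM in young B cells and at 31.6, 0 and 43.3 at 24, 27 and 28 months, a log2 fold change of -3.08 (SE 0.714, edgeR adjusted p = 0.0168). This call depended on the setting: the fold change was -2.84 without shared barcodes (adjusted p = 0.0708) and -3.09 with DESeq2 (adjusted p = 1), it also missed the threshold with the filter of the study and with no filter beyond 1 count, and when 1 library was left out it passed only without 24 months, with fold changes from -3.6 to -1.6. Without young replicate 1 it was -1.6, and without young replicate 2 no gene was called in B cells. Pclaf (-1.9) and Uhrf1 (-1.75) came next in B cells, and Ccna2 (-3.28) and Nfya (1.63) after Ube2c in MΦs, and none of these 4 passed. Histone mRNAs of this kind mostly lack a poly(A) tail, and the library captured poly(A) RNA.

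Next, cycling cells were set against up to 5 other cells each of the same library and class, to see what else moved with the members. The members chose these cells, so their own values are descriptions. Top2a was at 814, 287, 146, 618, 210 and 494 CPM in cycling cells of young replicates 1 and 2 and of 20, 24, 27 and 28 months, against 0 to 20.1 in matched cells. Mki67 was at 194, 68.0, 73.0, 235, 169 and 536 CPM, against 0 to 7.25. Ube2c was at 544, 144, 73.0, 131, 69.9 and 239 CPM, against 0 to 21.8. Mki67 was thus highest at 28 months, while Top2a and Ube2c were highest in young replicate 1. Ccnb1 was the least apart, at 21.7 to 121 CPM against 0 to 36.3, so that its ranges overlapped, followed by Tyms at 30.2 to 139 CPM against 0 to 8.4. Matched Ccnb1 was above 0 only in young replicate 1 (28.1 CPM) and at 24 months (36.3 CPM). Each of these libraries held 1 macrophage with many Ccnb1 UMIs and no other member, at 21 and 10 UMIs. Cycling cells were deeper than their matches in every library, with medians of 1563 against 784.5 UMIs in young replicate 1 and 11880 against 8636 at 27 months, and the part of depth was not tested.

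Among 16728 genes that are no members, 788 passed (4.71%), 403 of them higher (2.41%) and 385 lower (2.3%) in cycling cells. Without TMM normalization the split was 503 higher and 174 lower, and without the library as a replicate block 40 genes passed, all 40 higher. The direction was the same in all 6 libraries for 154 of the higher and 178 of the lower genes. The cycling cells of 20 months summed to 82212 UMIs, where a gene of low level can be at 0 and then counts as lower. This part was not tested. Ccna2, the cyclin of S and G2 phase, rose by 5.85 on the log2 scale (SE 0.492, edgeR adjusted p = 8.25e-30), from at most 5.65 CPM in matched cells to 10.6 to 147 CPM in cycling cells. Kif11, the spindle motor, rose by 5.66 and Bub1, a kinase of the spindle checkpoint, by 5.82. The other largest rises were Ankle1 (at 0 in all matched sums), Cdca3 (5.81), Hmmr (5.49), Aspm (5.31), Spc24 (5.23), Ckap2 (5.17), Knstrn (5.12), Pclaf (5.07) and Kif22 (5). Pclaf, a partner of the replication clamp, had a change of 4.69 without shared barcodes and did not pass there (edgeR adjusted p = 0.123).

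The largest falls took in 8 genes. Gpx3, a secreted glutathione peroxidase, fell by 2.28 on the log2 scale (SE 0.367, edgeR adjusted p = 6.01e-08), from 5.94 to 134 CPM in matched cells to 0 to 15.2 CPM in cycling cells. Pik3ip1 fell by 1.81, Clec4a1 by 1.63, Klra2 by 1.94, mt-Td by 1.92, Adgrb3 by 2.64 and Kcnb2 by 3.45. Fbxl12os was at 0 in all cycling sums and at 0.804 to 9.88 CPM in matched cells. Without shared barcodes Fbxl12os, Kcnb2, Adgrb3, mt-Td and Pik3ip1 did not pass, at adjusted p from 0.18 to 0.705 by edgeR. The changes of the last 4 were then -2.7, -1.45, -1.47 and -1.33. Camp (log2 fold change 7.39) and Ngp (6), granule genes of developing neutrophils, also chosen after their values were seen, were called although higher in only 1 and 2 of 6 libraries.

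The cell cycle lists moved together, and nearly all one way. Of 64 G2 and M phase genes 61 rose and none fell, with a median log2 change of 3.66 against -0.19 over all genes. Of 48 S phase genes 43 rose and none fell, with a median of 2.13. Tubb5 (tubulin, 1.72), Tuba1b (1.52), H2az1 (1.56), Tmpo (1.52), Jpt1 (0.85) and Tubb4b (0.75) were the most counted of the G2 and M genes, and rose in all 6 libraries. Among the most counted S phase genes, Pcna, the replication clamp, rose by 1.51, Dut, which keeps uracil out of DNA, by 2.12, Pola1 by 2.06, Slbp by 1.15, Usp1 by 1.22 and Nasp by 0.70. Of 14 histone genes 10 rose, with a median of 2.57, among them H2ac8 (4.8, higher in 5 of 6 libraries), H4c4 (2.92) and H2az2 (1.46). H2bc4 (-0.11), H1f2 (0.12) and Macroh2a1 (0.39), the other most counted histone genes, did not pass.

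Regulators changed in both directions. Of 15 transcription factors of cell cycle genes 8 rose and none fell, among them E2f7 (4.98) and E2f8 (2.70), repressors of S phase genes, Foxm1 (3.27) and Mybl2 (2.57), activators of mitotic genes, and E2f1 (2.05), chosen for mention after their values were seen. The most counted factors, E2f4, Lin52, Nfya, Nfyb, Nfyc and Rbbp4, had changes from 0.14 to 0.48 and did not pass. Of 22 cyclins, kinases and ubiquitin ligase genes 11 rose and none fell, whereas the G1 cyclins Ccnd2 (-0.31) and Ccnd3 (-0.44), Cdk6 (0.05), Anapc5 (0.21), Anapc11 (0.41) and Cul1 (-0.10) did not pass. Of 18 inhibitors and quiescence genes 4 fell and 2 rose. The genes that rose included Cdkn2c (1.69), which encodes an inhibitor of the G1 kinases. Btg1 and Btg2, which restrain growth, fell by 0.73 and 0.56, Klf2, a factor of resting lymphocytes and endothelium, by 0.76, and Gas1, an arrest gene, by 1.54. Cdkn1a, which encodes p21, was at -0.02 (SE 0.174, edgeR adjusted p = 0.977) and Klf4 at -0.43. Btg2 did not pass without shared barcodes (edgeR adjusted p = 0.348).

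Within single classes the lists moved the same way where cycling cells were many. In B cells of 3 libraries 479 of 12592 genes passed (3.8%, 2.53% higher), with 58 of 63 G2 and M phase genes, 37 of 47 S phase genes and 11 of 14 histone genes higher and none of these lower. H1f1 and H2bc3 (both at 0 in all sums of other B cells), Kif14 (6.11), Cep55 (5.88) and Kif11 (5.86) were among the largest rises. Erythroid markers summed to 11.6 UMIs per 10000 in cycling and 236 in other B cells, and their part in these calls was not tested. In MΦs 170 of 12624 genes passed (1.35%, 0.642% higher), with 31 of 54 G2 and M phase genes and 12 of 43 S phase genes higher and none lower. H1f5 (5.76), E2f7 (5.74), Cdca3 (5.14), Kif11 (5.08) and Tpx2 (4.90) led the rises, and without shared barcodes 75 genes passed in MΦs. Of the calls with one direction in every library, 45 were higher and 80 lower in MΦs, and 240 higher and 148 lower in B cells. The cycling MΦs of young replicate 2 summed to 7516 UMIs, and the cycling B cells of 24 months to 25694. A gene of low level can be at 0 in such a sum and then counts as lower, and this part was not tested. The largest MΦ falls, 1700034P13Rik, Wnt5b and Ly6c2, were at 0 in all cycling sums. MΦ markers summed to 170 UMIs per 10000 in cycling and 242 in other MΦs, B cell markers to 3.20 and 3.07.

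Plasma cells and airway cells gave fewer calls. In plasma cells 84 of 5971 genes passed (1.41%, 0.737% higher), with 18 of 42 G2 and M phase genes higher and 0 of 30 S phase genes. Of these 30 S phase genes 28 had changes above 0 and 2 below. Their median log2 change was 1.96, against -0.15 over all genes. The antibody genes Jchain, which encodes the joining chain, and Iglc2 fell by 1.75 and 1.97 in cycling plasma cells. In airway epithelial cells 15 of 10967 genes passed (0.137%, 0.1% higher), with Nusap1 (4.71), Cenpm (4.40), Cdc20 (3.65) and Stmn1 (2.86) higher and Lyz2 (-3.03) and Errfi1 (-4.30) lower. Of the 20 cycling airway cells in this fit 17 carried shared barcodes, including all 8 of young replicate 2 and all 5 of 24 months, and too few were left to fit without them. Leaving out 1 library gave 2 calls without young replicate 1, 103 without young replicate 2 and 3 without 24 months.

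Across the artery the members followed other division genes most closely. Over 42 sums of a class in a library with at least 50 cells, the 10 genes of 23336 with the highest Pearson r to the summed members, on log2(CPM + 1), were Ccna2 (0.81), Kif15 (0.79), Racgap1 (0.79), Kif2c (0.78), Pclaf (0.77), Cenpa (0.77), Gmfg (0.77), H2aj (0.76), Cdca3 (0.76) and Lockd (0.75). Sums of the same library share its depth and free RNA, so these are descriptions. Gmfg, a regulator of the actin cytoskeleton in blood cells, and the histone variant gene H2aj are in none of the cell cycle lists used here.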

How the data were processed

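Libraries of the 6 mice were made with 10x Genomics 3' v3.1 chemistry after digestion with collagenase and elastase. The deposited files hold raw UMI counts per gene and barcode, with no filter on barcodes; the submitters' processing notes name cutadapt, STAR, STARsolo and the build GRCm38.p6. Another young mouse that the study describes was not analysed here.

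Barcodes with at least 500 UMIs and 300 genes and at most 20% mitochondrial UMIs were kept. Cells were clustered without members and without the S, G2 and M phase genes (scanpy 1.11.5, leidenalg 0.10.2), into 34 clusters and 20 classes, and a class was named from marker genes. The library is the replicate. Shares were compared after thinning each cell to 500 UMIs (mean of 20 seeded draws), in libraries with at least 20 cells of the class, by exact two-sided permutation or sign-flip tests with Benjamini-Hochberg adjustment. Counts summed per library (at least 10 cells, or 5 cycling cells) were tested by the quasi-likelihood test of edgeR 4.0.16 with TMM over genes with at least 10 counts, with the library as a block for cycling against other cells; blocks pair cells of the same mouse. DESeq2 1.42.0 was an alternative. In simulated counts of cycling against matched cells (16303 genes), 65.6% of 4-fold changes were recovered. In summed counts, fewer cycling cells and less RNA per cell cannot be told apart. Scrublet marked 311 cells as doublets, which were kept, 9 of them cycling (2.44% of cycling cells against 1.99% of all). Of these 9 cells 7 were of young replicate 1 and 2 of 27 months.

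Named were the members and the 6 most counted genes of each list. In cycling against matched cells the 12 largest rises and 8 largest falls that passed in one direction in every library were named. Within classes only a part of such genes is named. Also named were the 10 genes most like the members over sums of at least 50 cells. In old against young the 3 list genes with the smallest p were named. The members and lists were chosen with earlier results of these data known. Of the list symbols 18 were matched by Ensembl identifier and 1 (Lin54) was not matched. Promoters are 250 bases before each RefSeq start (GRCm38.p6).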

Additional observations from a re-analysis of the deposited data

Results flagged for a closer look

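The thinned share of cycling ECs at 20 months, 0.141%, stood apart from the 3 other old libraries, which were each at 0%. Unthinned, 5 of 674 ECs were cycling there, and 0 of 630 at 28 months, which allows a share of up to 0.476% (3 cells of the total). Chance puts a value this far apart in about 1 in 20 groups without ties, a rate that does not hold here, where the other 3 values were tied at 0. Of the 5 cells, 3 held exactly 2 members, 1 held 5 or more, and none held Mki67.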

How the results depend on the processing

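Under the alternatives run, 309 of 340 values of the main comparisons kept their direction and their side of the threshold (counts: stayed within 1.5 times). Old against young was compared without pairing, because the young and old libraries come from different mice. The labels give no replicate numbers, and those used here are names only. Reversed were the share of ciliated cells against the rest without thinning (0.0562 percentage points, 0.111 with marked doublets also left out), ECs in old minus young with at least 1 member (-0.207), FBs with at least 1 member (0.687), at least 3 (0.0149) and, unthinned, at least 5 (0.14), with -0.106 to 0.0951 when 1 library was left out, and B cells unthinned with at least 3 (0.0996) or 5 members (1.36). The thinned B cell and FB directions thus depend on these settings, and the cause was not tested.

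Counts of genes moved more. Old against young, 119 genes over all classes became 60 with DESeq2, 38 with filterByExpr, 437 with no filter, 24 with the filter of the study (genes detected in more than 5% of cells, in 3 or more libraries) and 54 without shared barcodes, an alternative chosen after seeing the data, like the unthinned shares with other limits. Leaving out 1 library gave 24 (without young replicate 2) to 713 (without 20 months), and 580 without 24 months. Cycling against matched cells, 788 genes became 290 with DESeq2, 3101 against all other cells, 148 with filterByExpr, 251 with the filter of the study and 40 with no replicate block, and 379 (without 28 months) to 877 when 1 library was left out. Within classes, 748 genes became 334 with DESeq2, 370 with the filter of the study and 265 with no replicate block, and 241 (without 28 months) to 846 when 1 library was left out, with 298 without young replicate 1.

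Of named genes, 192 values of 55 results no longer passed under an alternative, and 20 values of 15 results newly passed. The sign changed for 30 values. In log2 units, Cdkn1a was 0.044 with DESeq2, 0.262 with at least 3 members, 0.075 with filterByExpr, 0.169 without marked doublets, 0.137 without TMM, 0.153 without shared barcodes and 0.086 with the filter of the study (-0.144 to 0.081 without 1 library). Cdk6 was -0.081 against all other cells, -0.353 with at least 3 members and -0.123 with no replicate block (-0.133 to 0.16 without 1 library). Anapc5 (-0.124) and H1f2 (-0.197, and -0.06 to 0.394 without 1 library) reversed against all other cells, Cul1 without TMM (0.052) and with the filter of the study (0.01), H2bc4 without TMM (0.039), and Nfya with at least 3 members (-0.224, and -0.052 to 0.722 without 1 library). Old against young, without 1 library, the changes ran from -2.326 to 6.869 for Uhrf1 in B cells, -3.954 to 4.274 for Spc25 in FBs, and, in MΦs, -4.712 to 6.019 for Ccnb1, -1.305 to 0.002 for Ccnb2 and -0.788 to 0.11 for Mki67. For the first 4 the highest value was that without young replicate 1.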
